A study of Homo sapiens with 2 samples.

Results

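The imprinted region 15q11-q13 was described through 6 genes, SNRPN, NDN, MAGEL2, MKRN3, UBE3A and ATP10A, of the 56756 genes in the RefSeq table. The members were chosen by name, and each was taken with its RefSeq interval extended by 10 kb on each side, which gave 7556 CpGs. The data came from H9 cells, an established line of human embryonic stem cells, described in the labels as pluripotent and grown in mTeSR medium on Matrigel. There was 1 group of 2 replicates, with no treatment, no differentiated sample and no control group. ATAC-Me was the assay: a transposase puts adapters into open chromatin, unmethylated cytosines are then converted, and a fragment therefore tells where chromatin was open and which of its CpGs were methylated. A methylation level here is therefore the share of methylated CpG reads among the fragments that the transposase released, and reads were not assigned to a parental copy. The labels do not state that separate cultures were used for the replicates, so SDs measure only the spread between these samples, which may be technical. The p-values below come from read counts and measure counting error, not a spread between cultures.

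In an imprinted region, the copies from mother and father differ in expression. MKRN3, MAGEL2, NDN and SNRPN are known as genes expressed from the paternal copy, while UBE3A is expressed from the maternal copy in neurons and ATP10A shows a maternal bias in some people and tissues. The control region of the domain overlaps the main SNRPN start, which is known to carry DNA methylation on the maternal copy and none on the paternal copy. From the upstream part of SNRPN runs a long transcript, SNHG14, that hosts small nucleolar RNAs and reaches across UBE3A in the antisense direction. Loss of the paternal contribution is linked to Prader-Willi syndrome and loss of maternal UBE3A to Angelman syndrome. A CpG group methylated on 1 of 2 copies would read 50% if both copies gave reads equally. The question was which CpG groups of the region read near that level, and 35% to 65% in both replicates is called intermediate below.

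The RefSeq promoter table (GRCh38.p14) lists 11 starts for the 6 genes, 4 of them for SNRPN and 3 for UBE3A. SNRPN start 3, at chr15:24954987 on the plus strand, is the main start and is shared with SNURF, a small reading frame upstream of SNRPN on the same transcript. Starts 1 and 2 lie upstream at chr15:24856571 and chr15:24862972, and start 4 lies downstream at chr15:24956300. No start is listed at the upstream end of the SNRPN gene, chr15:24823637, which lies beside the SNHG14 start at chr15:24823608. The only ATP10A start listed, chr15:25863327, lies inside the gene, whose upstream end is at chr15:25865088. Levels at these upstream ends were thus not counted among the member starts. Windows of 300 bases, from 250 bases before to 50 bases after a start, are shown because the results turn on them: the methylated MKRN3 start, the start of SNHG14, and SNRPN starts 1, 3 and 4. They run 5′ to 3′ on the plus strand, with every CpG in capitals, and lie at chr15:23565424-23565723 (MKRN3), chr15:24823358-24823657 (SNHG14), chr15:24856321-24856620 (SNRPN start 1), chr15:24954737-24955036 (SNRPN start 3) and chr15:24956050-24956349 (SNRPN start 4).
MKRN3: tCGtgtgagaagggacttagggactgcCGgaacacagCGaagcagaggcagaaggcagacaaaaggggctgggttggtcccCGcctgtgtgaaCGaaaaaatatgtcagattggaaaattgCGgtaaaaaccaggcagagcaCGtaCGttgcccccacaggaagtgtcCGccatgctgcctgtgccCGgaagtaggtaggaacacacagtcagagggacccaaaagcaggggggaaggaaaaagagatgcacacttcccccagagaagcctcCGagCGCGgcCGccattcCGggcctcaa
SNHG14: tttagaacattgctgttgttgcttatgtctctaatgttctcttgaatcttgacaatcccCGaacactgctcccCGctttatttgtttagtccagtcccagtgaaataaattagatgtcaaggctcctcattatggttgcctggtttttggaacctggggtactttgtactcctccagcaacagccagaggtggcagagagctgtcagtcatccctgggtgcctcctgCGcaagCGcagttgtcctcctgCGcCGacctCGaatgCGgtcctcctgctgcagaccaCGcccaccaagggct
SNRPN start 1: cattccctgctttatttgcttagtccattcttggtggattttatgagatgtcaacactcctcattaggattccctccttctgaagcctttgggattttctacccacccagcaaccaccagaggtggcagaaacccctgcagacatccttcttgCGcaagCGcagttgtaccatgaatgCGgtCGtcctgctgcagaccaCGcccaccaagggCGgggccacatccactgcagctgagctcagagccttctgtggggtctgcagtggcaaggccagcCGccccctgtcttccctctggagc
SNRPN start 3: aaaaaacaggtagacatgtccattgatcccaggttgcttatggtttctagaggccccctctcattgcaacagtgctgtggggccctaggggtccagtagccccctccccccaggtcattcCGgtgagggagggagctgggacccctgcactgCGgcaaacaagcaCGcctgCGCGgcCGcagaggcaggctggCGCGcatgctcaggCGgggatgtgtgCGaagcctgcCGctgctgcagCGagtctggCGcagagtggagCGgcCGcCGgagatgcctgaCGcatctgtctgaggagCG
SNRPN start 4: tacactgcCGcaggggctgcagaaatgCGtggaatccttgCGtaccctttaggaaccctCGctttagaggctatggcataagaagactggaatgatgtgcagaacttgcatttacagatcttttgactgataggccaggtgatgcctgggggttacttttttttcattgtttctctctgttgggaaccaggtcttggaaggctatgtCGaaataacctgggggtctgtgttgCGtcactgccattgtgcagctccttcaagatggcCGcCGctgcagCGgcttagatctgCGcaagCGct

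The MKRN3 window held 15 CpGs, and the windows of SNRPN starts 1, 3 and 4 held 7, 18 and 11. Within the 18 CpGs printed for the main SNRPN start, 0% of 195 CpG reads were methylated in replicate 1 and 1.43% of 280 in replicate 2. All 7 reads on the printed MKRN3 CpGs in replicate 1, and all 11 in replicate 2, were methylated. The MKRN3 and SNRPN start 3 sequences thus held similar numbers of CpGs and stood at opposite ends of the methylation scale.

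The windows of SNHG14 and SNRPN start 1 were alike in sequence: 171 of 213 aligned bases were identical (80.3%). Their longest shared run was 29 bases, beginning 66 bases before SNRPN start 1, and it is shown because no other pair of printed windows shared more than 13 bases in a row.
shared run: tcctgctgcagaccaCGcccaccaagggc
A search of both strands for the NRF1 motif GCGCANGCGC found it in 2004 of 34943 promoters of the table (5.74%). It was present in the windows of NDN, SNHG14 and SNRPN starts 1 and 4, with the motif in capitals below.
NDN: ggccgcggtcGCGCAGGCGCagtgccgcgt
SNHG14: ggtgcctcctGCGCAAGCGCagttgtcctc
SNRPN start 1: catccttcttGCGCAAGCGCagttgtacca
SNRPN start 4: gcttagatctGCGCAAGCGCt
The YY1 motif AANATGGC was found in 2296 promoters (6.57%). It was present at SNRPN start 4 and, as a single site in overlapping windows, at UBE3A starts 1 and 2.
SNRPN start 4: cagctccttcAAGATGGCcgccgctgca
UBE3A start 1: gtccagtcgcAAGATGGCgaccgagcct
These matches are descriptions of letters and were not tested for binding.

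Summed over the autosomal CpGs, the replicates held 28475863 and 51406146 CpG reads, in which a read counts once at each CpG it covers. These covered 31.6% and 59.0% of the 27852739 CpGs listed. Outside peaks, 61.1% of reads were methylated in replicate 1 and 70.0% in replicate 2, so the second library was higher over the genome as a whole. The 6 intervals held 0.825 and 1.91 reads per CpG, against 13.9 and 22.8 per CpG in their peaks, so levels outside peaks and starts rest on few reads. Intervals given below are 95% Wilson intervals. They cover counting error only, and they are too narrow because CpGs on 1 read are not independent. Of the markers of pluripotent cells, 3 had a measured start: NANOG and SOX2, transcription factors, read 1.47% ± 2.08 and 1.19% ± 0.857 (SD, n = 2), and DNMT3B, a DNA methyltransferase, read 46.8% ± 4.08 at its only listed start. That DNMT3B start has 11 CpGs, and any other promoter of the gene was not read. Most measured starts of any gene were low, so these levels do not identify the cell type.

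No measured start of the 6 genes read near 50%. Of the 11 starts, 9 had at least 20 CpG reads within 500 bp in each replicate, and all 9 were under 20% in both, against 85.8% of the 20162 autosomal starts measured. The number called intermediate was 0, where 2.06% of all measured starts were, or 0.145% of those with 50 or more CpGs. That class holds the starts of NDN, UBE3A and ATP10A, but not those of MAGEL2 and SNRPN. An exact binomial test placed all 9 below 50% in both replicates after Benjamini-Hochberg adjustment over all measured starts, as it did 88.7% of them, and placed 0 above 50%, against 6.33%. The members' median was 1.22%, beside 1.28% over all measured starts. The 9 low calls thus stand against a background in which most measured starts were low. The low call of all 9 held with CpGs within 250 or 1000 bp and with each replicate left out.

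**Figure D1:**
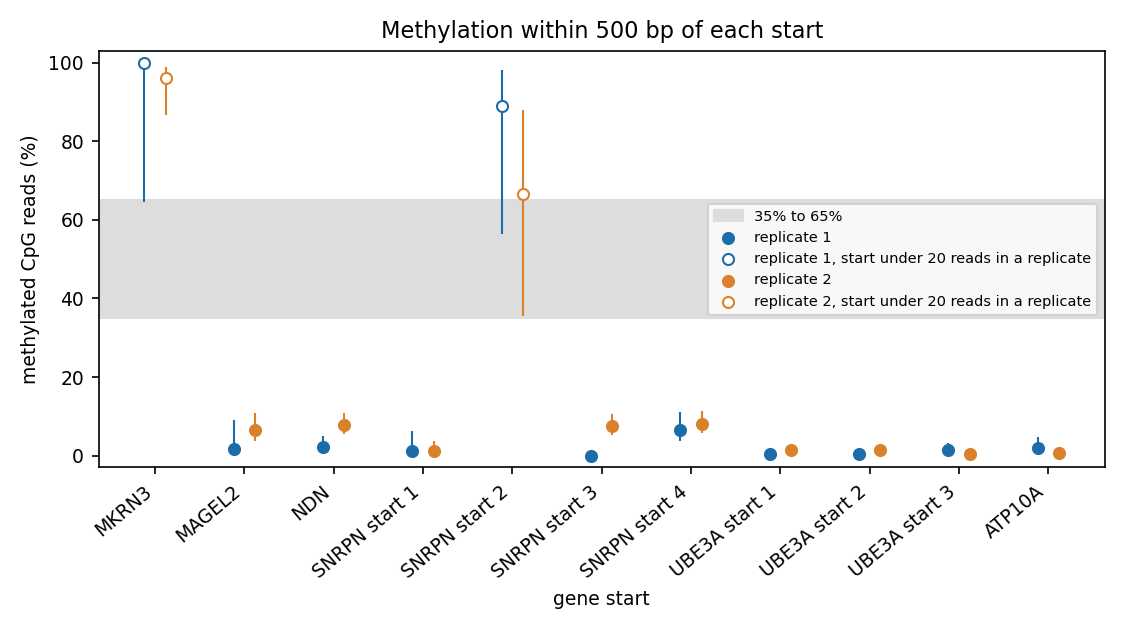
Methylation within 500 bp of the 11 starts in the 6 genes: the vertical axis gives the percent of CpG reads that were methylated, points are the 2 replicates, bars are 95% Wilson intervals, open points mark starts with under 20 reads in a replicate, and the grey band spans 35% to 65%. The 9 filled pairs lie at or below 8.16%, under the band, while MKRN3 and SNRPN start 2 lie high on few reads.

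Among the paternally expressed members, MKRN3 stood apart, although NPAP1, listed below with the other transcripts of the domain, read as high. It encodes a makorin RING finger ubiquitin ligase known as a brake on puberty, and its gene lies at chr15:23565674-23568044. Within 500 bp of its start, 100% of 7 CpG reads were methylated in replicate 1 (interval 64.6% to 100%) and 96.0% of 50 in replicate 2 (86.5% to 98.9%), a mean of 98.0% ± 2.83 (SD, n = 2). The first replicate missed the read minimum, so MKRN3 was not among the measured starts. Its 7 reads in replicate 1 lie on 7 CpGs and may come from as little as 1 fragment. The interval of replicate 1 thus cannot decide against 50%. That of replicate 2, on 50 reads over 31 CpGs, leaves out 50% but is too narrow as well. No peak lay in its interval, and the nearest summit was 124889 bp away. The 34 CpGs of its gene body outside the start read 94.4% ± 4.89, and its flanks 63.8% ± 10.2.

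MAGEL2 and NDN, neighbours of the MAGE family, were low at their starts and had no peak there. MAGEL2 (chr15:23643549-23647867, minus strand), part of a ubiquitin ligase complex that acts in protein recycling, read 1.72% of 58 reads in replicate 1 and 6.47% of 201 in replicate 2, or 4.10% ± 3.35. NDN (chr15:23685400-23687305, minus strand), the growth suppressor necdin, read 2.23% of 224 and 7.82% of 422 reads, or 5.03% ± 3.95. NDN was higher in replicate 2 by Fisher's exact test (adjusted p = 0.0228 over all measured starts). The nearest summits lay 42696 bp from the MAGEL2 start and 3258 bp from the NDN start.

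SNRPN encodes the splicing protein SmN, and its gene spans chr15:24823637-24978723. At start 1 the level was 1.14% of 88 reads and 1.26% of 239, or 1.20% ± 0.0841, and a peak summit lay 37 bp away. Start 2 had 5 CpGs and 9 reads in each replicate, with 88.9% and 66.7% methylated, and was not counted as measured. The main start, start 3, read 0% of 250 reads in replicate 1, a count that allows up to 1.20%, and 7.45% of 376 in replicate 2 (5.20% to 10.6%), or 3.72% ± 5.27. Its replicates differed by Fisher's exact test (adjusted p = 3.41e-05), a p-value that is too small because CpGs on 1 read are not independent. Start 4 read 6.40% of 172 and 8.16% of 392 reads, or 7.28% ± 1.25, the highest mean of the 9 measured starts. That rank was lost with CpGs within 250 bp, where start 4 read 1.97% ± 2.78, below MAGEL2 at 3.36% and NDN at 3.20%. With every covered CpG weighted equally, start 4 read 13.4%. Start 3 has its peak summit 99 bp away, while start 4 has none within 500 bp.

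The replicates differed at 2 of the 9 measured starts, NDN and SNRPN start 3, and 25.9% of all measured starts differed by the same test. Replicate 2 was the higher one at both, as at 7 of the 9 starts. Both calls were lost when only CpGs within 250 bp were counted, on fewer reads. There NDN read 3.20% ± 3.42 on 129 and 356 reads, so its replicates still lay apart by nearly as much, and SNRPN start 3 read 0.678% ± 0.959 on 218 and 295. The share of the genome-wide shift between libraries in these differences was not tested.

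The maternally expressed genes, UBE3A and ATP10A, were low at all 4 of their listed starts, as was SNRPN start 1. UBE3A (chr15:25333728-25439056, minus strand), the ubiquitin ligase E6AP, has starts 1 and 2 only 32 bp apart, so they share nearly all of their CpGs. Start 1 read 0.468% of 1068 and 1.36% of 1839 reads, or 0.914% ± 0.630, with a summit 19 bp away. Start 2 read 0.900% ± 0.615 and start 3, further into the gene, 0.938% ± 0.579. ATP10A (chr15:25672237-25865088, minus strand), a flippase that moves phospholipids between membrane leaflets, read 1.84% of 217 and 0.588% of 510 reads, or 1.22% ± 0.887. It had no peak near its start: the nearest summit was 14401 bp away. The order from UBE3A start 2 at the bottom to SNRPN start 4 at the top was not resolved throughout. SNRPN start 3, MAGEL2 and NDN lie within 1 SD of each other, and SNRPN start 4 lies within the SD of each of them. The UBE3A starts, SNRPN start 1 and ATP10A lie closer together than the SDs of the UBE3A starts and ATP10A.

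Along the gene, the level around SNRPN start 3 was not even. In bins of 250 bp, the 250 bp before the start read 0% of 142 and 1.79% of 224 reads, and the 250 bp after it 0% of 76 and 0% of 71. From 250 to 499 bp the replicates parted, with 0% of 32 reads and 32.9% of 70. From 500 to 749 bp they read 0% of 6 and 27.9% of 43. From 750 to 999 bp both were higher than at the start, at 37.5% of 32 reads and 29.9% of 67. From 1250 to 1499 bp, next to start 4, they were low again at 0% of 100 and 5.51% of 127. Partial methylation thus lay between starts 3 and 4, from 250 to 999 bp in replicate 2 and from 750 to 999 bp in replicate 1. The bins richest in reads were among the lowest. The part of read depth in this profile was not tested.

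The stretch between SNRPN starts 3 and 4 held the window nearest to 50% among those measured within 5000 bp of these starts. Its 500 bp window, chr15:24955501-24956000, has 37 CpGs and read 31.6% of 38 reads (19.1% to 47.5%) and 30.1% of 113 (22.4% to 39.1%), or 30.8% ± 1.05. Both values lie just under the 35% limit. Both intervals leave out 50%, but they treat CpGs on 1 read as independent. They therefore cannot decide whether the level differs from 50%. No CpG there had more than 2 reads in replicate 1 or 6 in replicate 2. In replicate 1, 11 CpGs in a row, from 830 to 919 bp after the main start, each had 1 methylated read of 2. In replicate 2 the same CpGs had 4 to 6 reads, of which 0 to 2 were methylated. No CpG of the window reached 80% in either replicate: of the 34 covered in replicate 2, 14 read 20% or less and 20 lay between 20% and 80%.

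**Figure D2:**
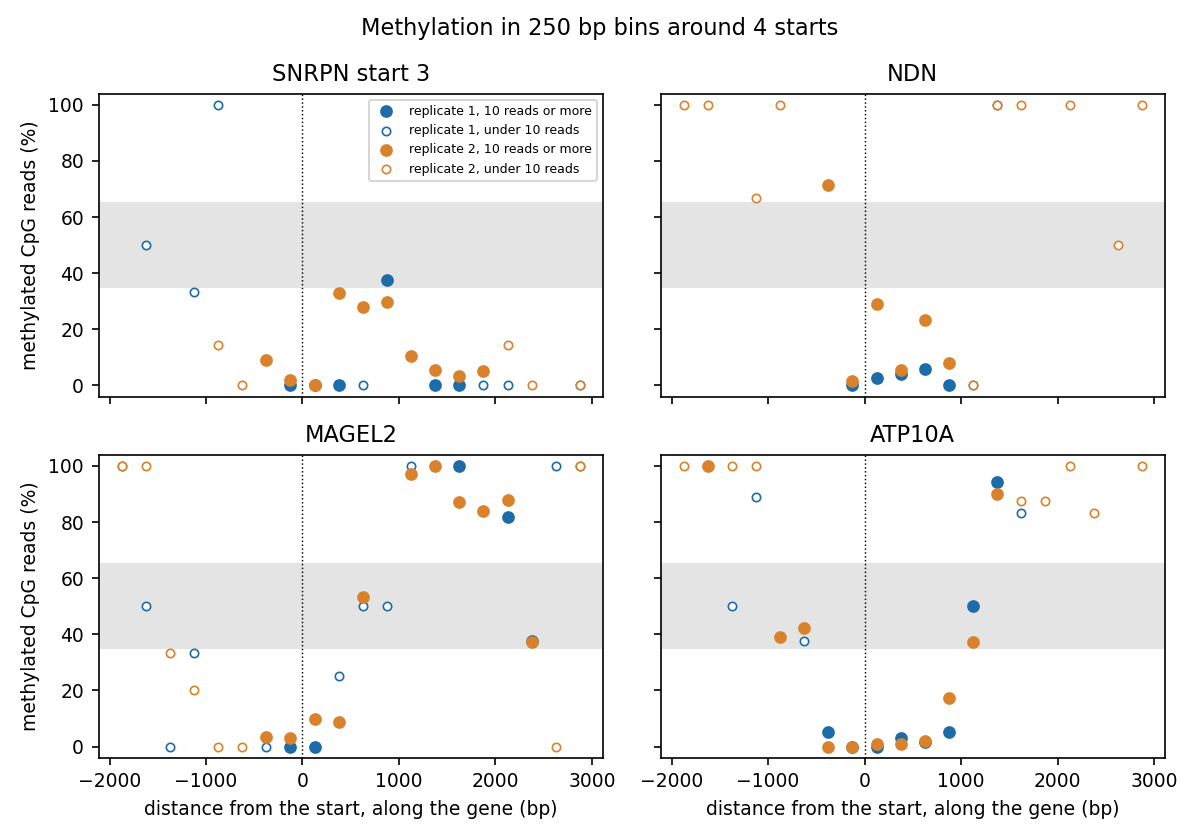
Methylation in bins of 250 bp around SNRPN start 3, NDN, MAGEL2 and ATP10A: the horizontal axes give the distance from the start along the gene in bp, the vertical axes the percent of CpG reads methylated, with 1 point per replicate, open where a bin has under 10 reads, and a grey band from 35% to 65%. SNRPN start 3 is low at the start and from 1250 bp on, with values of 27.9% to 32.9% in replicate 2 from 250 to 999 bp and of 37.5% in replicate 1 from 750 to 999 bp, while MAGEL2 and ATP10A reach 90% or more within 1500 bp of their starts.

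Pairs of adjacent CpGs, at most 50 bp apart and each with exactly 1 read, show whether neighbouring CpGs shared a state, although the pair may come from different reads. Within 1000 bp of the main SNRPN start, 0 of 7 pairs in replicate 1 and 0 of 3 in replicate 2 were mixed, and all were unmethylated at both CpGs. So few pairs allow shares of up to 35.4% and 56.1%. In the intermediate windows of the 6 intervals, 2 of 12 and 1 of 12 pairs were mixed. In all intermediate CpG-dense windows of the autosomes, those with 25 or more CpGs, 23.9% of 4319 and 20.6% of 2096 pairs were mixed, and in those with fewer CpGs, the class of 6 of the 7 member windows, 28.02% of 14620 and 26.1% of 9306. All of these shares lie inside the wide intervals of the members' windows, 4.70% to 44.8% and 1.49% to 35.4%.

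At MAGEL2 the unmethylated stretch ended inside the gene. The first 250 bp read 0% of 22 and 9.76% of 82 reads, the bin from 1000 to 1249 bp 100% of 8 and 97.1% of 34, and the bin from 1500 to 1749 bp 100% of 23 and 87.2% of 47. The CpG-dense window chr15:23646001-23646500, with 43 CpGs, read 93.8% ± 8.84. A second dip followed from 2250 to 2499 bp, with 37.5% of 16 and 37.4% of 91 reads. MAGEL2 thus combined an unmethylated start with a methylated CpG-dense body.

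The NDN body outside the start read 5.66% of 53 and 20.9% of 158 reads, or 13.3% ± 10.8. Its bins lay under 30% in both replicates up to 999 bp after the start, and beyond that each bin of the gene had at most 2 reads in a replicate, those from 1250 bp on all methylated. Its flanks outside starts and peaks read 81.0% ± 1.46, on 15 and 145 reads. Within 250 bp before the start the level was 0% of 92 and 1.66% of 302 reads, whereas just after the start replicate 2 read 28.8% of 52 and replicate 1 2.78% of 36. At ATP10A every bin from 500 bp before to 999 bp after the start was under 20% in both replicates, with 5.36% of 56 and 17.4% of 92 reads in the last one. Further in, the level passed through 50% of 16 and 37.2% of 43 reads from 1000 to 1249 bp to 94.1% of 17 and 90.0% of 10 from 1250 to 1499 bp.

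To find intermediate CpG groups without using the starts, 500 bp windows were read where each replicate had at least 3 covered CpGs and 10 reads. Of 17 measured windows with 25 or more CpGs, 1 was intermediate, where 1.41% of 52569 such windows on the autosomes were. Of 79 measured windows with fewer CpGs, 6 were intermediate (7.59%), where 7.62% of 216666 were. The shares of low windows were 10 of 17 in the dense class, against 72.1%, and 18 of 79 in the other, against 14.3%. Windows over 80% numbered 2 of 17, against 16.2%, and 26 of 79, against 36.9%. The count of intermediate windows with fewer CpGs was thus at the background level, and the dense class holds a single such window.

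**Figure D3:**
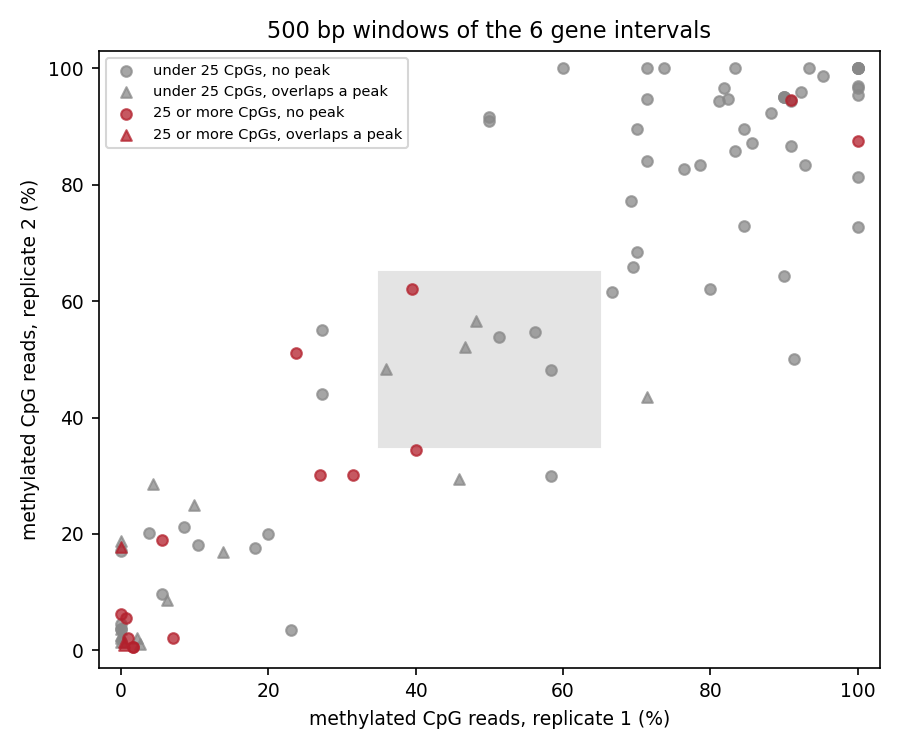
Methylation of the 500 bp windows measured in the 6 intervals, replicate 1 on the horizontal and replicate 2 on the vertical axis, both in percent of CpG reads: red marks windows with 25 or more CpGs, grey the others, triangles overlap a peak, and the grey square spans 35% to 65% in both replicates. The square holds 1 red and 6 grey windows, and most red windows sit near 0%.

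The single dense intermediate window lay inside the SNRPN gene at chr15:24919001-24919500, 35737 bp before the main start. Its 25 CpGs read 39.5% of 43 reads (26.4% to 54.4%) and 62.1% of 58 (49.2% to 73.4%), or 50.8% ± 15.9. The level was not even within it: the first 125 bp read 25% of 4 and 82.6% of 23 reads, the second 63.6% of 11 and 76.5% of 17, the third 47.1% of 17 and 26.7% of 15, and the last 9.09% of 11 and 0% of 3. A further window of SNRPN, chr15:24858501-24859000, overlaps a peak downstream of start 1 and read 36.0% of 25 and 48.3% of 29 reads, or 42.1% ± 8.68.

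Inside MAGEL2, 2 adjoining windows were intermediate. The window chr15:23645001-23645500 read 58.3% of 12 and 48.1% of 52 reads, and chr15:23645501-23646000 read 56.3% of 16 and 54.7% of 75. In the latter window, none of the 11 CpGs covered in replicate 1 lay between 20% and 80%: 5 were at or under 20% and 6 at or over 80%, on at most 2 reads each. Its first 125 bp read 0% of 5 and 34.0% of 47 reads and the next 125 bp 81.8% of 11 and 95.2% of 21. In replicate 2, with up to 14 reads at a CpG, 1 of its 18 covered CpGs was at or under 20%, 6 lay between 20% and 80%, and 11 were at or over 80%. The level was thus uneven along the window, and its lower stretch was itself partly methylated in replicate 2.

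In the ATP10A gene, 3 windows were intermediate. The window chr15:25783501-25784000 read 51.4% of 37 and 53.8% of 52 reads, or 52.6% ± 1.76. The adjoining windows chr15:25810501-25811000 and chr15:25811001-25811500, which overlap the same peak, read 49.4% ± 3.80 and 52.3% ± 5.92. They were uneven too: in replicate 2 the last 125 bp of the former read 26% of 50 reads after 81.0% of 21, and the first 125 bp of the latter 22.7% of 22 before 86.4% of 22. Over the 7 intermediate windows of the region, there were 12 to 98 reads per window and replicate. Their Wilson intervals reached 50%, which follows largely from how they were chosen. Of the dense windows, a MAGEL2 window at chr15:23647001-23647500 lay just outside the limits with 40% of 10 and 34.5% of 29 reads. A dense ATP10A window at chr15:25862001-25862500 lay further below them, with 27.0% of 63 and 30.2% of 126. Windows with fewer CpGs came near the limits too, such as chr15:25692001-25692500 in ATP10A with 66.7% of 15 and 61.5% of 13 reads. A dense SNRPN window at chr15:24848001-24848500, 8321 bp before start 1, read 23.8% of 21 and 51.0% of 100 reads.

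The authors' peak list held 12 peaks in the intervals: 7 at SNRPN, 3 at ATP10A, 1 each at NDN and UBE3A, and none at MKRN3 or MAGEL2. Among them, 11 had 10 or more CpG reads in both libraries, and 8 of these were under 20% in both, against 70.8% of the 40703 measured autosomal peaks. None was intermediate, against 6.91%, and none differed between replicates by Fisher's exact test, against 7.89%. At an unadjusted exact p under 0.05 the UBE3A peak alone would pass, with exact p = 0.0104 and adjusted p = 0.0944. The median of the 11 was 2%, beside 4.17% for all measured peaks.

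Each gene's peaks are given with the authors' peak signal, used only to describe them. At SNRPN the strongest, chr15:24823482-24823832, covers the start of SNHG14 and the upstream end of the SNRPN gene. Its signal was 1231, above 80.6% of the autosomal peaks. This peak read 0% of 170 reads, which allows up to 1.76%, and 2.24% of 357. The peak of SNRPN start 1 (chr15:24856389-24856713) read 1.22% ± 0.0843 at a signal of 919, and that of start 3 (chr15:24954772-24955068) 0% of 209 and 1.38% of 290 reads at a signal of 599. The 2 starts that share the 29-base run printed above, SNHG14 and SNRPN start 1, thus both had a peak and low methylation.

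Between the SNRPN starts lay 4 further peaks. The peaks chr15:24857636-24858125, chr15:24898802-24899145 and chr15:24951129-24951598 read 1.69% ± 2.38, 12.4% ± 2.74 and 2% ± 2.83. The fourth, chr15:24858884-24859211, 2492 bp after start 1, read 9.68% of 31 and 24.3% of 37 reads. The UBE3A peak at its start, chr15:25438920-25439313, read 0.224% of 893 and 1.23% of 1544 reads at a signal of 1360. The strongest peak of the region, with a signal of 1379, lay at chr15:25669989-25670603, beyond the far end of ATP10A, and read 2.44% ± 0.715.

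The 2 measured peaks of highest methylation had signals under the autosomal median of 541. The NDN peak, chr15:23690470-23690671, lies 3258 bp before the gene start, has a signal of 259 and read 38.9% of 18 and 27.1% of 48 reads. The ATP10A peak chr15:25810859-25811071, signal 470, read 40.6% of 32 and 25% of 72. Another ATP10A peak, chr15:25848801-25849023, had 9 reads in replicate 1 and was not measured. Both measured ones were inside the 35% to 65% range in replicate 1 and below it in replicate 2. Each holds only 3 or 4 CpGs.

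Outside starts and peaks the region was mostly methylated, at 69.7% of 3160 and 76.2% of 9011 reads, or 73.0% ± 4.54. With starts kept in and only peaks left out, the 6 intervals read 51.1% and 61.4%, or 56.3% ± 7.29, beside 61.1% and 70.0% for the autosomes outside peaks, a mean of 65.6%. Gene bodies read 72.7% ± 5.12 and flanks 74.96% ± 0.557. By gene, the body read 90.1% ± 4.14 in UBE3A, 76.8% ± 4.92 in MAGEL2, 72.2% ± 5.50 in ATP10A and 71.5% ± 5.20 in SNRPN. The NDN body, at 13.3%, was below the others by more than the SDs between replicates. Of its 53 and 158 reads, however, 35 and 116 lay 500 to 749 bp after the start, and 15 and 38 lay 750 to 999 bp after it. The NDN value thus describes the surroundings of the start of a short gene, unlike the bodies of the longer genes. The MKRN3 body, at 90.9% of 11 and 97.8% of 46 reads, overlapped in its replicates with that of UBE3A, at 87.1% of 241 and 92.98% of 727.

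**Figure D4:**
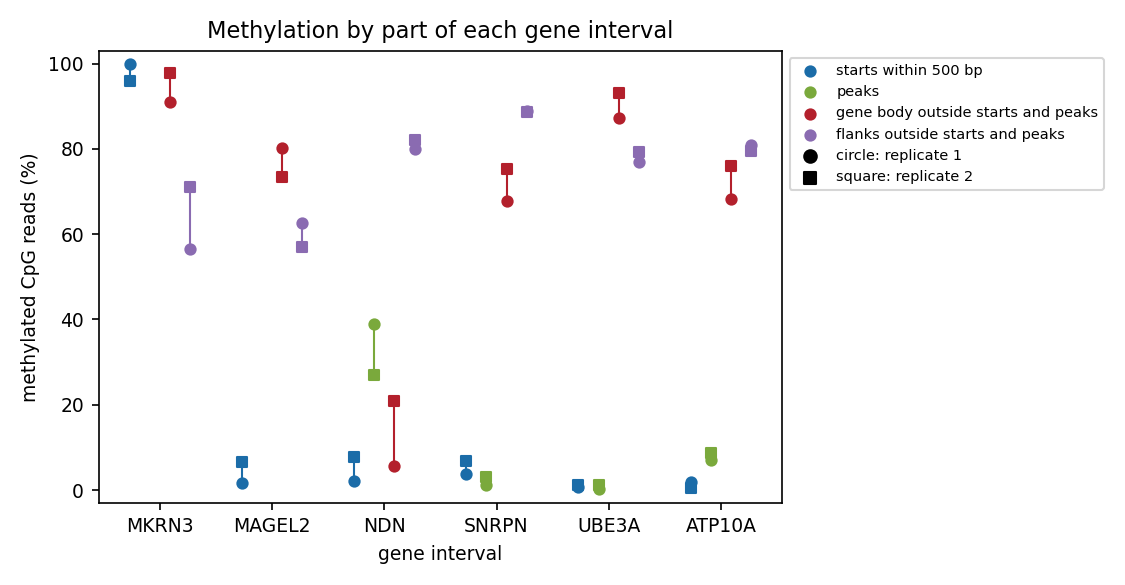
Methylation of each gene's interval by part: the vertical axis gives the percent of CpG reads methylated, circles are replicate 1, squares replicate 2, and colours mark starts, peaks, gene body and flanks. Starts of every gene but MKRN3 lie under 10%, and the body of NDN lies between 5.66% and 20.9% while the other bodies lie above 67%. Nearly all reads of the NDN body lie within 999 bp of its start.

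The other transcripts of the domain were listed under 95 symbols, of which 9 had a start in the table and 3 were measured. SNURF shares the main SNRPN start, so its value is the same measurement. SNHG14 read 0.562% of 178 and 4.03% of 372 reads at its start, or 2.30% ± 2.45. NPAP1, a nuclear pore associated protein gene between NDN and SNRPN, read 100% of 25 and 96.6% of 116 reads, or 98.3% ± 2.44. NPAP1 exceeded 80% in both replicates, as did 4.06% of all measured starts. MKRN3 read as high, but it was not measured. PWAR1 had 9 and 10 reads, with 77.8% and 70.0% methylated, and was not measured.

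Of 9 flanking genes, 7 had a start in the table and 3 were measured, all under 20%. They were NIPA1 at 1.22% ± 1.47 and NIPA2 at 0.743% ± 0.407, which encode magnesium transporters, and GABRG3, a GABA-A receptor subunit, at 0.866% ± 0.0662. TUBGCP5 and HERC2 had no reads in either replicate.

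Genes elsewhere with a start near a control region methylated on the maternal copy were read the same way. Every start listed for these genes was taken, not only those at a control region. Of 26 symbols, 15 had a start in the table, and 33 starts of 14 symbols were measured. None was intermediate, against 2.06% of all measured starts, and 18 were under 20% in both replicates, against 85.8%. Their median was 12.0%, between 0.432% at GRB10 start 4 and 96.4% at ZNF331 start 4, beside 1.28% over all measured starts. The main SNRPN start, at 3.72%, lay below that median, which covers all of these starts and not control regions alone.

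The 5 starts most like the main SNRPN start, by the mean absolute difference of methylation over 2 replicates among 14888 starts with 50 or more CpGs and 50 or more reads in each replicate, were LOC105372592, METTL23, ZNF562, ZSCAN1 and EOGT-DT. Their levels were 0% to 0.633% in replicate 1 and 7.19% to 7.92% in replicate 2. The main SNRPN start itself has 47 CpGs, below the 50 asked of these starts. With 2 values per start, such likeness says only that these starts read alike in both libraries.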

How the data were processed

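ATAC-Me libraries of H9 cells, 2 replicates of 1 group, were analysed. For each CpG the authors deposited a methylation fraction and a read count, and for the group a peak list with a score, a signal and the −log10 of the q-value. The submitters' processing notes name Trim Galore, Genrich and the build hg38 (GRCh38). Not given in the sources used here are the mapper, the methylation caller, versions, the handling of duplicates and how replicates entered peak calling. Unconverted cytosines count as methylated, which would raise low levels most.

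Methylated reads were computed as fraction times count, rounded; 100% of products were whole within 0.001. Methylated reads of a region were divided by all its reads per replicate, and the mean and SD over 2 replicates were taken. CpGs marked CpGx in the authors' tables were kept (96 of 7556). Positions are counted from 1. Starts came from the RefSeq promoter table (GRCh38.p14), which matched all 6 genes. Measured starts needed 20 CpG reads within 500 bp in each replicate, windows 10 reads and 3 covered CpGs, and peaks 10 reads. Exact binomial tests against 50% and Fisher's exact tests between replicates, all two-sided, were adjusted by Benjamini-Hochberg over all autosomal starts (20162) or peaks (40703) at 0.05. Their p-values are too small, since CpGs on 1 read are not independent and PCR copies of a molecule may be counted more than once. A share of 0 is given with the limit that 3 counts of the total would make. The tests were checked on simulated gene starts with independent reads, so the check does not cover dependent CpGs or PCR copies. Python 3.11.15, SciPy 1.17.1, pandas 2.3.3 and Biopython 1.88 were used.

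The members and lists were chosen with earlier results of these data known. Named were the 6 genes at every start, any measured transcript of the domain or flanking gene, the intermediate, lowest and highest starts of the genes elsewhere with a control region, the intermediate dense windows, every peak of the intervals, and the 5 most like starts; other windows, PWAR1, TUBGCP5 and HERC2 were chosen after their values were seen. Alternatives covered limits, read minimums, distances, weighting, CpG classes, extension of the intervals and each replicate left out. Exons and introns were not assigned, and parental copies were not told apart.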

Additional observations from a re-analysis of the deposited data

How the results depend on the processing

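Across the alternatives tried, the count of member starts under 20% stayed at 9, those below 50% at 9 and intermediate starts at 0. The 2 starts that differed between replicates became 0 with CpGs within 250 bp. Intermediate windows numbered 7, and 18 with limits of 25% to 75%. Leaving out a replicate gave 14 to 34 intermediate windows, 0 to 2 intermediate peaks where 0 had been called, and 1 intermediate start among genes elsewhere with a control region, whichever replicate was left out (these last, chosen after seeing the data). MKRN3 was above 50% by the binomial test when replicate 1 was left out. The dense SNRPN window was no longer counted with limits of 40% to 60% or when 30 or more CpGs were asked for. The cause was not tested, except that 1 replicate alone is an easier rule to meet than both. Over all autosomal starts, 416 were intermediate and between 196 and 948 under the alternatives. No paired analysis was possible because there is only 1 group. Depth limits MKRN3, SNRPN start 2 and the stretch between SNRPN starts 3 and 4 most.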

Other observations

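The starts of 3 markers of pluripotent cells were measured, and 1 of them, that of DNMT3B, a DNA methyltransferase gene, was intermediate. Its 11 CpGs read 43.9% of 98 reads in replicate 1 and 49.7% of 143 in replicate 2, or 46.8% ± 4.08 (SD, n = 2). This is the only start listed for DNMT3B, at chr20:32779852. Any other promoter of the gene was not read. No start of the 6 genes or of the listed genes elsewhere with a control region was intermediate. Among the latter, the values nearest to the range were PLAGL1 start 3 at 29.98% ± 3.89, a zinc finger gene, and INPP5F start 2 at 29.3% ± 1.23, while GNAS start 2 read 53.3% of 75 reads in replicate 1 and 18.6% of 199 in replicate 2. PLAGL1 start 3 and INPP5F start 2 were chosen after their values were seen, as was GNAS start 2.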
